A study of Homo sapiens with 14 samples.

Results

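The 35 genes described here are type I interferon stimulated genes, taken by symbol from a fixed list, among 62749 genes in the tables. Each symbol matched 1 gene identifier, and all 35 were among the 22560 genes whose counts were high enough to test. They were measured by RNA sequencing of 14 xenograft samples, grown in mice from UMUC3 cells, which are a line of human bladder carcinoma. The 4 groups were FASN knockdown cells grown in regular medium (n = 3), control cells in regular medium (n = 3), FASN knockdown cells pre-exposed to 10% cigarette smoke medium (CSM) before engraftment (n = 4) and control cells pre-exposed in the same way (n = 4). The titles mark the control cells with "sh", for a short hairpin RNA, the means of the knockdown is not given in the sources used here, and nothing says whether either kind of cell is a single clone. Mouse strain, age and the time between exposure and harvest are not given either. The design asks how these genes stand after FASN knockdown, after CSM, and after both.

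Type I interferons are secreted proteins that bind a receptor of IFNAR1 and IFNAR2 on the cell surface. The kinases JAK1 and TYK2 then activate transcription factors of the STAT family, among them STAT2, which joins IRF9 in a complex that binds a DNA element, the interferon-stimulated response element (ISRE), in front of the target genes. The targets sense viral RNA, block viral replication, or tune the pathway itself, and tumour cells can keep a part of them switched on without infection.

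The ISRE can be looked for in the promoter sequences of the members. A script searched 250 bases before to 50 bases after each gene start (RefSeq, GRCh38.p14) for its core, written here as GAAANNGAAA on one strand and TTTCNNTTTC on the other, with overlapping matches counted. Of the 28 members with such a window, 20 (71.4%) held at least 1 match, as did 1195 of 27305 genes (4.38%). The match is a description of these letters and not a binding site shown by these data. The 160 bases before the start are printed for IFI6, ISG15 and OAS3, the 3 members with the highest level per length, and for IFIT1, with the matches in capitals. They lie at chr1:27672193-27672352 (minus strand), chr1:1013337-1013496, chr12:112938314-112938473 and chr10:89392463-89392622 (plus strand).
IFI6: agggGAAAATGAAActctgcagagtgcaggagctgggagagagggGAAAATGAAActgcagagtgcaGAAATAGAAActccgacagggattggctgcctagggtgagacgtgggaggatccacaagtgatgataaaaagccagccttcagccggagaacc
ISG15: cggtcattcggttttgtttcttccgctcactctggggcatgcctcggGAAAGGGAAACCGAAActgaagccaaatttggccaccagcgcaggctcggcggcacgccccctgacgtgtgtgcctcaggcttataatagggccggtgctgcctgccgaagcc
OAS3: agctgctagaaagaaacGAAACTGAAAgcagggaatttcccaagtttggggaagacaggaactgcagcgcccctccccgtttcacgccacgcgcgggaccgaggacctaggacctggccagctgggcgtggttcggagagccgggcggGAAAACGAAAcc
IFIT1: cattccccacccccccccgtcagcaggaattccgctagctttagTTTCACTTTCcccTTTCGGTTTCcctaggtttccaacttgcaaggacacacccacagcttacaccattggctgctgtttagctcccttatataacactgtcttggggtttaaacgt
IFI6 held 3 separate matches in this stretch, the first with its first base 156 bases before the start. The 2 matches of ISG15 overlapped, the 2 of OAS3 stood far apart, and the 2 of IFIT1 were on the opposite strand. The 8 members whose windows held no match were STAT2, IRF9, HERC6, OAS1, CMPK2, SAMD9L, IFI35 and XAF1. The 7 without a window in the table were DHX58, IRF7, USP18, IFIT2, OAS2, OASL and MX2.

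**Figure D1:**
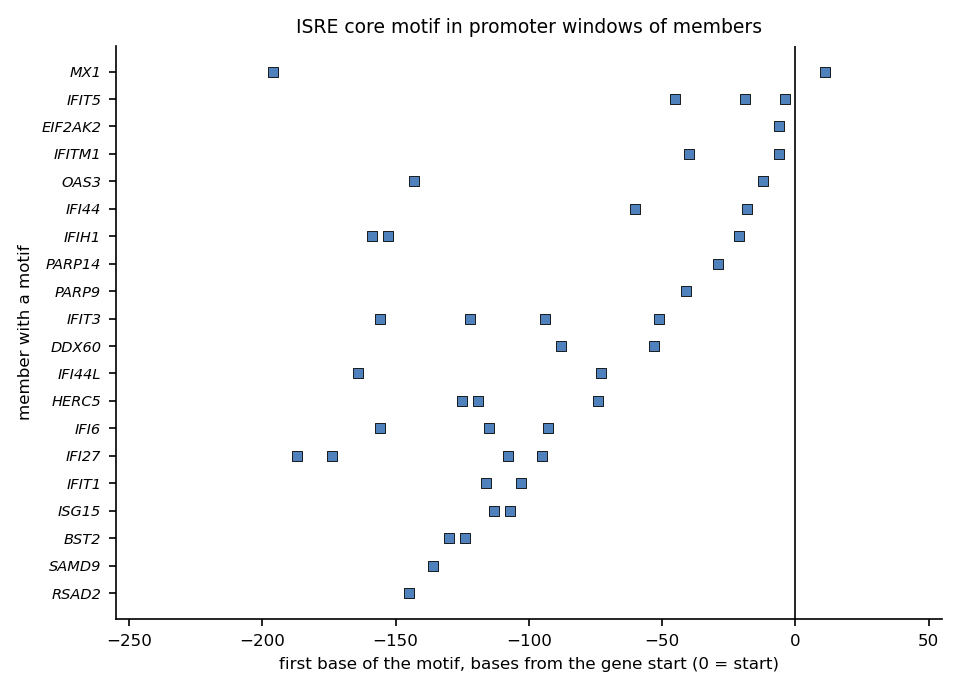
Position of each match to the ISRE core in the promoter windows of the 20 members that held one, in bases from the gene start (vertical line at 0). Each square is 1 match in 1 window, and genes with several annotated starts show the matches of every window. The windows of IFI44 overlap, as do those of IFI27, so the same bases appear there as more than 1 square. Nearly all squares lie upstream of the start, and MX1 holds the one downstream.

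Before the members are compared, the libraries need a description. FASN, the target of the knockdown, encodes fatty acid synthase and had 121, 99.9 and 131.5 CPM (counts scaled to the size of the library) in FASN knockdown libraries, against 571, 404 and 379 CPM in control libraries. FASN after CSM had 219.6, 166, 301 and 479 CPM in FASN knockdown libraries, against 456, 479, 423 and 366 CPM in control libraries. Its log2 fold change was -1.94 in regular medium (edgeR quasi-likelihood test, adjusted p = 0.0245) and -0.57 after CSM (adjusted p = 0.288). The exact two-sided permutation test gave p = 0.1 in regular medium, the smallest it can give there, and p = 0.114 after CSM. The library labelled FASN knockdown after CSM replicate 4 was at 111% of the mean of its controls, against its label. Without it the log2 fold change of FASN after CSM was -0.90 (adjusted p = 0.108), and fold changes of the members that rest on this library are given without it too. Library totals ran from 15810287 to 45209466 counts, of which 7SL RNA, a small structural RNA, took 2.64% to 25.6%. The 2 libraries above 15% 7SL were FASN knockdown replicate 2 and control after CSM replicate 3.

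The human tables held little sign of immune cells. The 10 leukocyte markers summed to 2.37 to 5.5 CPM in FASN knockdown libraries, 2.23 to 3.71 CPM in control libraries, 2.5 to 4.11 CPM in FASN knockdown libraries after CSM and 2.33 to 3.21 CPM in control libraries after CSM. The T cell marker CD3E totalled 7 counts over the 14 libraries and the plasmacytoid dendritic cell marker LILRA4 1, and no marker of the list was at 0 in every library. The 5 markers expected in UMUC3 summed to 1650 to 3430 CPM, although KRT19 averaged 0.0496 CPM. The 6 fibroblast markers summed to 29 to 36.4 CPM in FASN knockdown libraries, against 15.3 to 16.6 CPM in control libraries, and after CSM to 11.7 to 30.9 CPM in FASN knockdown libraries, against 13.3 to 29.2 CPM in control libraries. In regular medium ACTA2 made up 89.7% of that sum in FASN knockdown tumours, at a mean of 30.1 CPM, and 55.9% in control tumours, at 8.99 CPM. PDGFRB had the opposite order, with 0.937 CPM in FASN knockdown tumours and 4.05 CPM in control tumours. Of the 4 markers tested, 2 had a fold change above 0 in regular medium and 2 below. Averaged over both media, PDGFRB was lower at an adjusted p below 0.05 (edgeR), as 1.98% of all genes were, and the other 3 were above 0. The 5 endothelial markers summed to 1.29 to 2.80 CPM over all libraries. The tables list human transcripts alone, so host RNA is not measured, and how mouse reads were handled is not given in the sources used here. In bulk tissue, fewer cells that express a gene and less RNA per cell cannot be told apart.

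Every member had counts in every library, the fewest being 17 for IFI44L, and their levels covered a wide range. In TPM, a level per transcript length, averaged over the 14 libraries, the median member stood at 15.5 TPM. Below 5 TPM were 5 members, from 5 to under 20 TPM 15, from 20 to under 50 TPM 12, and at 50 TPM or more 3. IFI6, a small hydrophobic antiviral protein, led with 219.7 TPM, followed by ISG15 at 100.9 TPM and OAS3 at 52.9 TPM. Next came IFI44 (38.3 TPM), PARP14 (31.7 TPM), IFI35 (29.95 TPM), IFIT3 (28.6 TPM) and IRF9 (27.5 TPM), and these neighbours in the order overlapped over the libraries. The lowest were MX1 at 1.43 TPM, MX2 at 1.80 TPM, DHX58 at 2.04 TPM, SAMD9L at 3.17 TPM and HERC5 at 4.06 TPM. MX1, a widely used marker of the response, was the least abundant of the 35.

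Part of that RNA belonged to transcripts that do not code for protein. For MX1, protein-coding transcripts made up 35.1% of its TPM on average and retained-intron transcripts 64.9%. The coding share was 30.7% for STAT2, 41.8% for MX2 and 24.2% for XAF1. It was 100% in every library for IFI6, ISG15, IFIT1, IFIT3 and SAMD9.

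Libraries of 1 group differed in the members by more than knockdown and control groups did. From the lowest to the highest of the 14 libraries, the CPM of a member differed 5.88-fold in the median, 2.09-fold for MX1 and 304.7-fold for IFI44L. The mean log2 CPM over the 35 members was 5.83, 6.00 and 4.68 in FASN knockdown libraries, against 5.32, 6.21 and 4.75 in control libraries. It was 4.32, 5.44, 5.60 and 3.39 in FASN knockdown libraries after CSM, against 4.70, 4.59, 5.06 and 5.03 in control libraries after CSM. As group means that is 5.50 ± 0.72, against 5.43 ± 0.74 (SD, n = 3 each), and 4.69 ± 1.04, against 4.84 ± 0.24 (SD, n = 4 each). Without the library labelled FASN knockdown after CSM replicate 4, the mean of FASN knockdown libraries after CSM was 5.12 ± 0.70 (SD, n = 3).

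Single libraries set this spread, across nearly all roles at once. Control replicate 2 was the highest of its group for 33 of the 35 members and the highest of all 14 libraries for 17. FASN knockdown replicate 3 was the lowest of its group for 31 members, and control replicate 3 for 28. The library labelled FASN knockdown after CSM replicate 4 was the lowest of its group for 34 members and the lowest of all 14 for 31. Other measures moved in some of these libraries too. The 7SL share was 12.9%, 25.6% and 3.89% in FASN knockdown libraries, against 6.35%, 8.66% and 9.38% in control libraries. After CSM it was 2.73%, 11.3%, 2.64% and 2.67% in FASN knockdown libraries, against 4.2%, 4.97%, 16.3% and 6.33% in control libraries. The mean log2 CPM of 10 p53 target genes was 6.32 in FASN knockdown replicate 3, 5.87 in FASN knockdown after CSM replicate 1 and 5.95 in control after CSM replicate 1, against 4.11 to 4.81 in the other libraries. Whether any of these measures bears on the members was not tested, although the 7SL share was a covariate in an alternative fit given below.

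**Figure D2:**
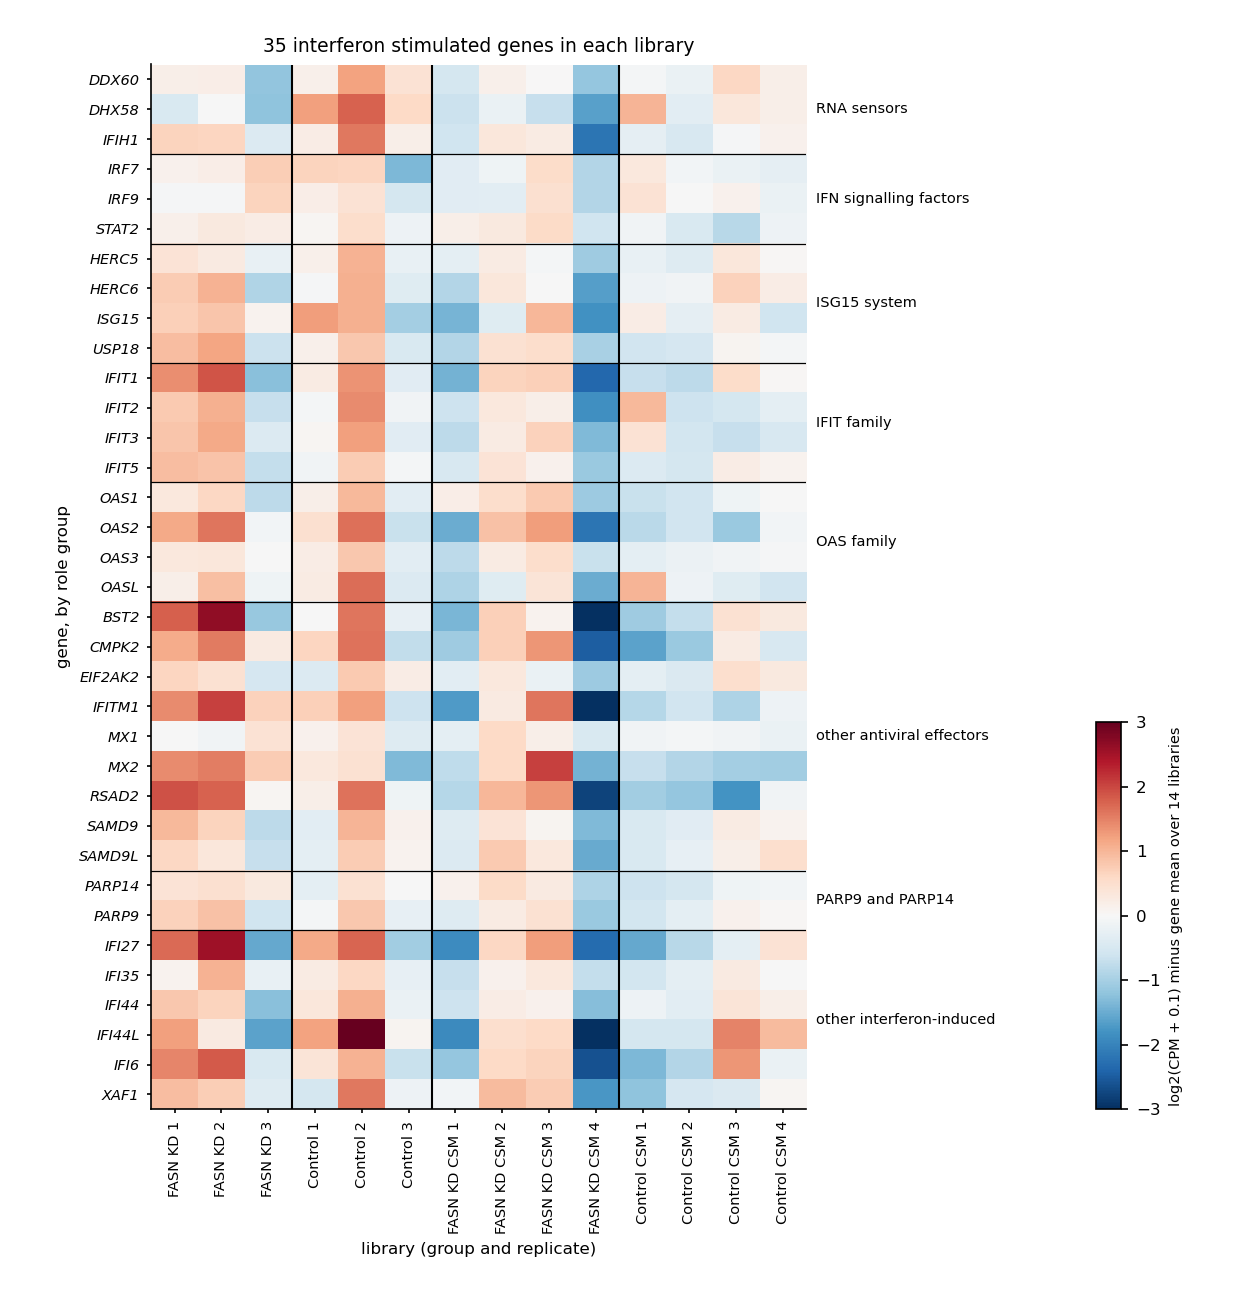
Level of each of the 35 members (rows, by role group) in each of the 14 libraries (columns, by group and replicate), as log2(CPM + 0.1) minus the gene's mean over the libraries; colours saturate at 3 in either direction. Control 2 is high and FASN KD CSM 4 is low in nearly every row, whatever the role of the gene.

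**Figure D3:**
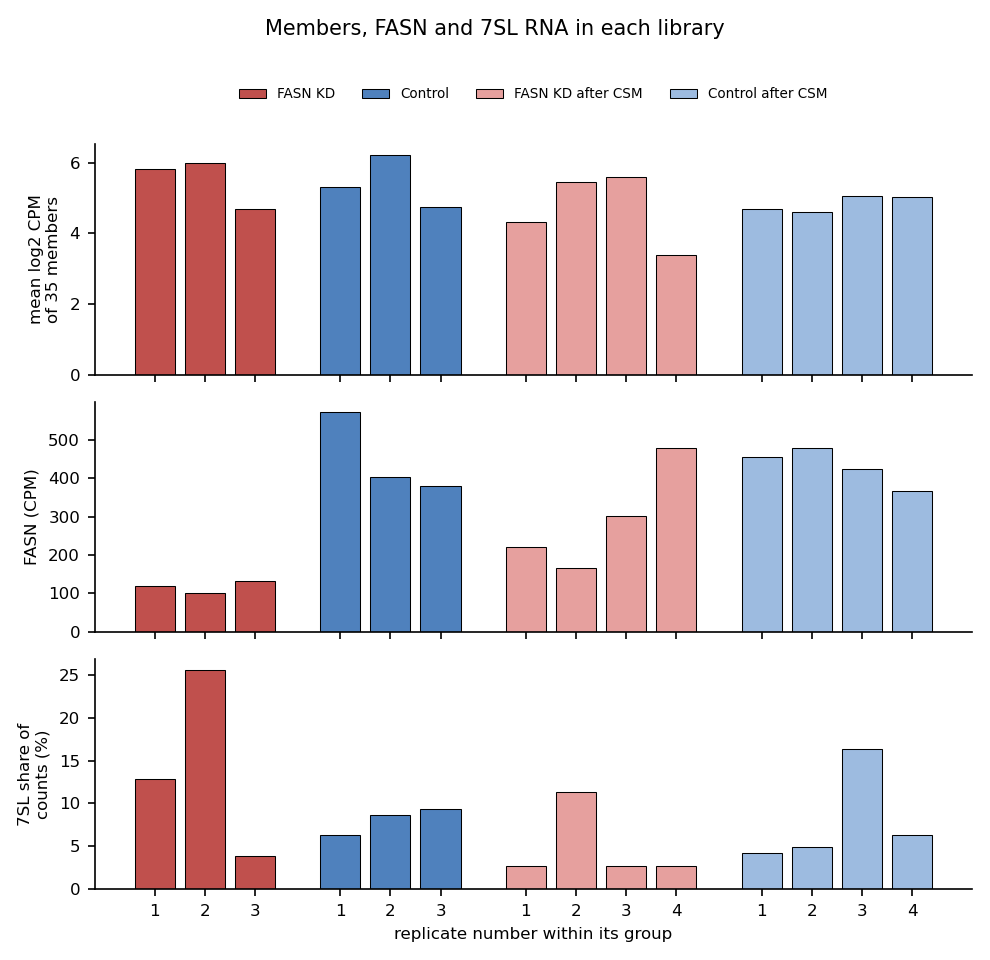
Mean log2 CPM of the 35 members (top), FASN in CPM (middle) and the share of counts on 7SL RNA in percent (bottom), 1 bar for each library. The library labelled FASN KD after CSM replicate 4 has the lowest mean of the members, 3.39, and the highest FASN of its group, 478.7 CPM.

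Within each role the member with the widest range was IFIH1 among the RNA sensors (13.9-fold), IRF7 among the signalling factors (4.31-fold), ISG15 in its own system (8.39-fold) and IFIT1 in the IFIT family (18.9-fold). It was OAS2 in the OAS family (14.5-fold), BST2 among the other antiviral effectors (58.3-fold), PARP9 of the PARP pair (3.95-fold) and IFI44L among the rest (304.7-fold). Of the members that sit side by side in the genome, some had ranges of like size and others did not. On chromosome 7, SAMD9 and SAMD9L lie 12032 bases apart and spanned 5.085-fold and 4.97-fold. On chromosome 1, IFI44 lies 3651 bases from IFI44L and spanned 5.08-fold, and on chromosome 21, MX1 lies 10914 bases from MX2 and spanned 2.09-fold, against 11.8-fold for MX2. RSAD2 and CMPK2 on chromosome 2 overlap on opposite strands, and the use of strand in counting is not given, so reads from the overlap cannot be told apart.

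The most abundant members show this spread library by library. IFI6 had 464, 599 and 123.5 CPM in FASN knockdown libraries, against 220.3, 348 and 105.5 CPM in control libraries. IFI6 after CSM had 75.1, 254, 267 and 27.6 CPM in FASN knockdown libraries, against 66.0, 91.9, 423 and 147 CPM in control libraries. The groups overlapped in both media, and the high library of the last group, replicate 3, was one of those above 15% 7SL.

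ISG15, a ubiquitin-like protein that is joined to other proteins, had 89.3, 96.7 and 58.3 CPM in FASN knockdown libraries, against 129.5, 114 and 26.75 CPM in control libraries. ISG15 after CSM had 20.7, 42.4, 108 and 15.4 CPM in FASN knockdown libraries, against 62.9, 45.4, 64.4 and 36.0 CPM in control libraries. Its lowest library in regular medium was a control, and after CSM FASN knockdown libraries were both the highest and the lowest.

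OAS3, an enzyme that makes the 2-5A signal when it meets double-stranded RNA, had 421, 429 and 337 CPM in FASN knockdown libraries, against 394, 591 and 272 CPM in control libraries. OAS3 after CSM had 196, 399.7, 491 and 212 CPM in FASN knockdown libraries, against 276.5, 301, 314.5 and 330.1 CPM in control libraries. Controls were the highest and the lowest in regular medium, and controls after CSM lay close together.

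IFI44, an interferon-induced cytoplasmic protein, had 113, 102 and 26.7 CPM in FASN knockdown libraries, against 81.1, 134 and 55.3 CPM in control libraries. IFI44 after CSM had 41.6, 75.1, 70.0 and 26.4 CPM in FASN knockdown libraries, against 57.8, 51.0, 83.3 and 72.3 CPM in control libraries. The ranges overlapped in both media, with the lowest value of each medium in a library labelled as knockdown.

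PARP14, an ADP-ribosyltransferase, had 316, 331 and 292 CPM in FASN knockdown libraries, against 194, 327 and 233 CPM in control libraries. PARP14 after CSM had 257, 351, 284 and 124 CPM in FASN knockdown libraries, against 153, 164, 216 and 225 CPM in control libraries. In regular medium 1 control lay between the knockdown libraries, and after CSM 3 of the 4 knockdown libraries lay above every control.

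IFI35, a leucine zipper protein, had 39.35, 75.1 and 31.4 CPM in FASN knockdown libraries, against 43.7, 56.6 and 30.7 CPM in control libraries. IFI35 after CSM had 22.5, 39.7, 45.6 and 22.1 CPM in FASN knockdown libraries, against 24.9, 29.8, 44.2 and 36.45 CPM in control libraries. Its highest library of all 14 was FASN knockdown replicate 2.

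IFIT3, which binds IFIT1 in the complex that recognises foreign RNA ends, had 139.6, 174 and 59.1 CPM in FASN knockdown libraries, against 82.6, 185 and 61.8 CPM in control libraries. IFIT3 after CSM had 45.4, 92.9, 127 and 31.5 CPM in FASN knockdown libraries, against 106, 53.4, 48.9 and 56.6 CPM in control libraries. Control after CSM replicate 1 stood apart from the other 3 of its group.

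IRF9, the DNA-binding partner of STAT2, had 60.3, 59.9 and 97.7 CPM in FASN knockdown libraries, against 70.75, 83.05 and 42.6 CPM in control libraries. IRF9 after CSM had 48.8, 49.65, 86.4 and 33.6 CPM in FASN knockdown libraries, against 83.8, 61.6, 67.3 and 53.9 CPM in control libraries. Unlike most members, it was highest in FASN knockdown replicate 3, where 31 members were the lowest of their group.

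For the effect of the knockdown, each medium was compared apart and both were then averaged, with adjusted p-values over all 22560 genes. Averaged over the media, 1 of the 35 members was called, at an adjusted p below 0.05 with edgeR's quasi-likelihood test, and it was lower in FASN knockdown tumours than in control tumours. That gene was DHX58, against a background of 3.52% of all genes called in either direction and 1.98% called lower. DESeq2 called 2 members, DHX58 and MX2, and 8.94% of all genes. No member was called in regular medium (0.204% of all genes were), where 1 member had an unadjusted p below 0.05, as 9.08% of all genes had, and DESeq2 called 1, DHX58, with 1.5% of all genes. After CSM, edgeR called no member (1.17% of all genes were called), 3 had an unadjusted p below 0.05, as 18.5% of all genes had, and DESeq2 called 0 members and 6.48% of all genes.

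DHX58, also known as LGP2, is a helicase that binds viral double-stranded RNA and tunes signalling by the related sensors RIG-I and MDA5. The gene (ENSG00000108771) lies on the minus strand at chr17:42101404-42112733 in GRCh38. It had 2.21, 3.05 and 1.28 CPM in FASN knockdown libraries, against 7.37, 10.7 and 4.71 CPM in control libraries. DHX58 after CSM had 1.92, 2.63, 1.85 and 0.915 CPM in FASN knockdown libraries, against 6.36, 2.45, 3.91 and 3.465 CPM in control libraries. In regular medium every knockdown library lay below every control, as the groups of 11.8% of all genes were apart in one direction or the other, and after CSM 1 knockdown library lay above the lowest control. After CSM no member's groups were apart, as those of 16.2% of all genes were.

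As group means, DHX58 stood at 2.18 ± 0.885 CPM in FASN knockdown tumours and 7.585 ± 2.99 CPM in control tumours (SD, n = 3 each). After CSM the means were 1.83 ± 0.705 CPM in FASN knockdown tumours and 4.05 ± 1.66 CPM in control tumours (SD, n = 4 each). The averaged log2 fold change was -1.48 (SE 0.32, 95% interval -2.16 to -0.81, adjusted p = 0.0208). It was -1.82 in regular medium (adjusted p = 0.209) and -1.15 after CSM (adjusted p = 0.162), and the difference between them, 0.67 ± 0.62 (SE), did not pass the test (adjusted p = 0.948).

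The call of DHX58 rested in part on 1 control library, and it was lost on the TPM scales, where the test was limma's. Without control replicate 2, in which nearly all members were high, the averaged log2 fold change was -1.33 (adjusted p = 0.0726), and over the 14 fits with 1 library left out the adjusted p ran from 0.0214 to 0.0726. Without the library labelled FASN knockdown after CSM replicate 4 the averaged value was -1.37 (adjusted p = 0.0322), and the value after CSM was -0.92 (adjusted p = 0.277). On log2(TPM + 1) values with limma the averaged value was -0.73 (adjusted p = 0.442), or -0.85 relative to the median of all genes on that scale. There the values by medium were -1.33 in regular medium and -0.12 after CSM, or -1.19 and -0.52 relative to all genes. With limma on log2(TPM + 0.1) the averaged value was -1.12 (adjusted p = 0.521), or -1.29 relative to all genes. By medium the values there were -2.06 in regular medium and -0.17 after CSM, or -1.76 and -0.8 relative to all genes. Its protein-coding transcripts averaged 1.79 CPM in FASN knockdown tumours, against 5.24 CPM in control tumours, and 1.3 CPM in FASN knockdown tumours after CSM, against 2.48 CPM in control tumours after CSM. The transcripts annotated otherwise were lower in the knockdown groups as well, at 0.394 CPM, against 2.34 CPM, and after CSM at 0.530 CPM, against 1.57 CPM. KAT2A, the next gene on the same strand, averaged 47.5 ± 18.2 CPM in FASN knockdown tumours and 67.0 ± 26.0 CPM in control tumours (SD, n = 3 each).

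The other RNA sensors of the list had fold changes of the same sign but did not pass the test. DDX60, a helicase, had 78.2, 79.3 and 30.5 CPM in FASN knockdown libraries, against 76.5, 158 and 92.9 CPM in control libraries. DDX60 after CSM had 47.6, 77.0, 69.9 and 30.7 CPM in FASN knockdown libraries, against 65.7, 59.8, 107 and 77.65 CPM in control libraries. The groups overlapped in both media, and the averaged log2 fold change was -0.63 (95% interval -1.20 to -0.07, adjusted p = 0.204). For IFIH1, which encodes the sensor MDA5, it was -0.28 (adjusted p = 0.687). Without the library labelled FASN knockdown after CSM replicate 4, DDX60 was at -0.53 and IFIH1 at -0.12.

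MX2, a dynamin-like GTPase that blocks the nuclear entry of viruses, had a fold change in the opposite direction. It had 10.5, 11.4 and 6.61 CPM in FASN knockdown libraries, against 4.88, 5.38 and 1.47 CPM in control libraries. MX2 after CSM had 2.25, 5.88, 16.25 and 1.38 CPM in FASN knockdown libraries, against 2.37, 2.07, 1.84 and 1.83 CPM in control libraries. In regular medium every knockdown library lay above every control, as the groups of 11.8% of all genes were apart in either direction. After CSM 2 knockdown libraries lay above every control, 1 among them and 1 below all.

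The averaged log2 fold change of MX2 was 1.47 (SE 0.46, 95% interval 0.49 to 2.46, adjusted p = 0.0925), past the threshold in DESeq2 (adjusted p = 0.0143) but not in edgeR. With 1 library left out it ran from 0.95 (adjusted p = 0.187), without FASN knockdown after CSM replicate 3, to 1.64 (adjusted p = 0.046), without the library labelled FASN knockdown after CSM replicate 4. The other 13 of these 14 fits gave no call. RSAD2, the antiviral enzyme viperin, had an averaged log2 fold change of 0.98 (adjusted p = 0.318), and 1.17 without that last library (adjusted p = 0.145). IFI44L stood at -1.26, with a 95% interval of -2.74 to 0.22 (adjusted p = 0.332), and at -1.06 without it.

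**Figure D4:**
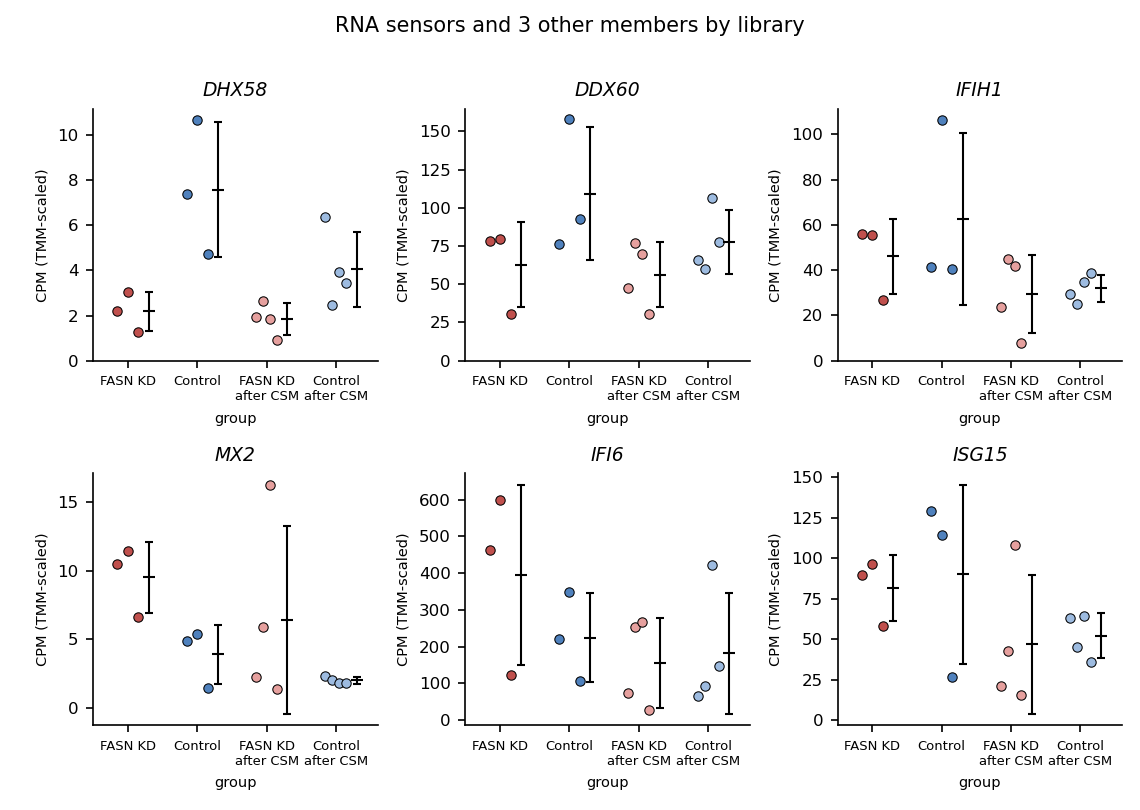
CPM of the 3 RNA sensors and of MX2, IFI6 and ISG15 in each library (points), by group, with the group mean and SD beside the points (bars). In regular medium the DHX58 points of the knockdown lie below all control points and the MX2 points above them, while the IFI6 and ISG15 points overlap. The groups of 11.8% of all genes were apart there in either direction.

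By role, the knockdown fold changes had no common direction. Averaged over the media, 21 of the 35 members were above 0 and 14 below, with a median log2 fold change of 0.12 beside 0.00 for all genes. All 3 RNA sensors among the members were below 0 (median -0.63) and both PARP genes above 0 (median 0.25), on log2(TPM + 1) too. Of 15 other sensors and adaptors of the pathway, outside the members, 8 were above 0 and 7 below (median 0.07). The IFIT family had 3 of 4 above 0 (median 0.14) and the OAS family 3 of 4 (median 0.09). The ISG15 system, with its ligases and the protease USP18, had 1 of 4 above 0 (median -0.18). It had 3 of 4 above 0 on log2(TPM + 1) (median 0.08), where the median of all genes was 0.12. The 9 other antiviral effectors had 6 above 0 (median 0.44), and STAT2, IRF7 and IRF9, the signalling factors, had a median of 0.04. Without the library labelled FASN knockdown after CSM replicate 4 the other antiviral effectors had 8 above 0 (median 0.62) and the RNA sensors still 0 (median -0.53). In regular medium the members' median was 0.14, and 0.51 without control replicate 2. After CSM it was -0.03, and 0.21 without the library labelled FASN knockdown after CSM replicate 4. On the log2(TPM + 1) scale the medians were -0.16 and 0.46, or -0.02 and 0.07 relative to all genes.

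For CSM, no member was called by edgeR in control cells, in FASN knockdown cells or averaged over both, where 0.0% of all genes were called in each of these comparisons. The averaged fold changes had 1 sign on the count scale. There all 35 members had a log2 fold change below 0, from -1.46 to -0.14, beside 49.6% of all genes. On log2(TPM + 1) 21 of the members did, where the median of all genes was 0.28. The members were high or low together in single libraries, so their signs and p-values are not separate observations. The members' median was -0.57 beside 0.00 for all genes. With an unadjusted p below 0.05, 7 members were lower after CSM and 0 were higher, and 1.23% of all genes were lower at that level. In control cells and in knockdown cells 1 member each had an unadjusted p below 0.05, beside 1.4% of all genes in control cells and 6.67% in knockdown cells. DESeq2 called 0 members in any of the 3 comparisons, and of all genes 0.0266% in control cells, 0.23% in knockdown cells and 0.0133% averaged. Without the count filter, edgeR called 11 members in the averaged comparison, all of them lower, and 0.202% of all genes. The p-values moved with the filter more than the fold changes did. For BST2 the log2 fold change was -1.46 in both edgeR fits. Its adjusted p was 1.15e-07 without the filter and 0.9999 with the filter, where its unadjusted p was 0.0216.

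The members with the smallest p in the averaged CSM comparison were RSAD2, BST2 and IFIH1. RSAD2 had a log2 fold change of -1.38 (95% interval -2.48 to -0.28, unadjusted p = 0.0171, adjusted p = 1.00). BST2, or tetherin, which holds budding viruses at the cell surface, had -1.46 (95% interval -2.68 to -0.25). IFIH1 had -0.81 (95% interval -1.53 to -0.09), and in control cells it was lower in every CSM library than in every library from regular medium, as the groups of 4.07% of all genes were apart. None of the 3 passed the adjusted test. Without the library labelled FASN knockdown after CSM replicate 4, RSAD2 was at -1.18, BST2 at -1.27 and IFIH1 at -0.64.

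The size of the CSM difference moved with single libraries and with the 7SL share. The members' median was -0.34 without control replicate 2 and -0.45 without the library labelled FASN knockdown after CSM replicate 4, and all 35 members were below 0 in both. With the 7SL share as a covariate it was -0.26, with 30 members below 0. On the log2(TPM + 1) scale 21 members were below 0 and the median was -0.14, where the median of all genes was 0.28, so that members stood at -0.42 relative to all genes and 34 of the 35 lay below that median.

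In control cells the members' median log2 fold change after CSM was -0.53, with 34 of 35 below 0, and -0.13 without control replicate 2. In FASN knockdown cells it was -0.64, with 34 of 35 below 0, and -0.34 without the library labelled FASN knockdown after CSM replicate 4. Without that library DDX60, DHX58, MX1, OAS1, SAMD9L, STAT2 and XAF1 were above 0, at 0.01 to 0.39, and the other members below. With the 7SL share as a covariate the members' median in knockdown cells was 0.01, with 17 of 35 below 0. On the log2(TPM + 1) scale it was 0.35, or -0.24 relative to the median of all genes. Both comparisons share libraries with the knockdown comparisons, so their values are not independent of those. By role, the medians averaged over the cells ran from -0.29 for the signalling factors to -0.75 for the other antiviral effectors. The signalling factors were above 0 on log2(TPM + 1), but their median of 0.13 was below the 0.28 of all genes. The IFIT family stood at -0.72, the RNA sensors at -0.57, the ISG15 system at -0.56, the OAS family at -0.55 and the PARP pair at -0.41. In FASN knockdown cells BST2 had the lowest value, -2.11 (adjusted p = 0.713). It was -1.71 without the library labelled FASN knockdown after CSM replicate 4 and -1.34 without FASN knockdown replicate 2.

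**Figure D5:**
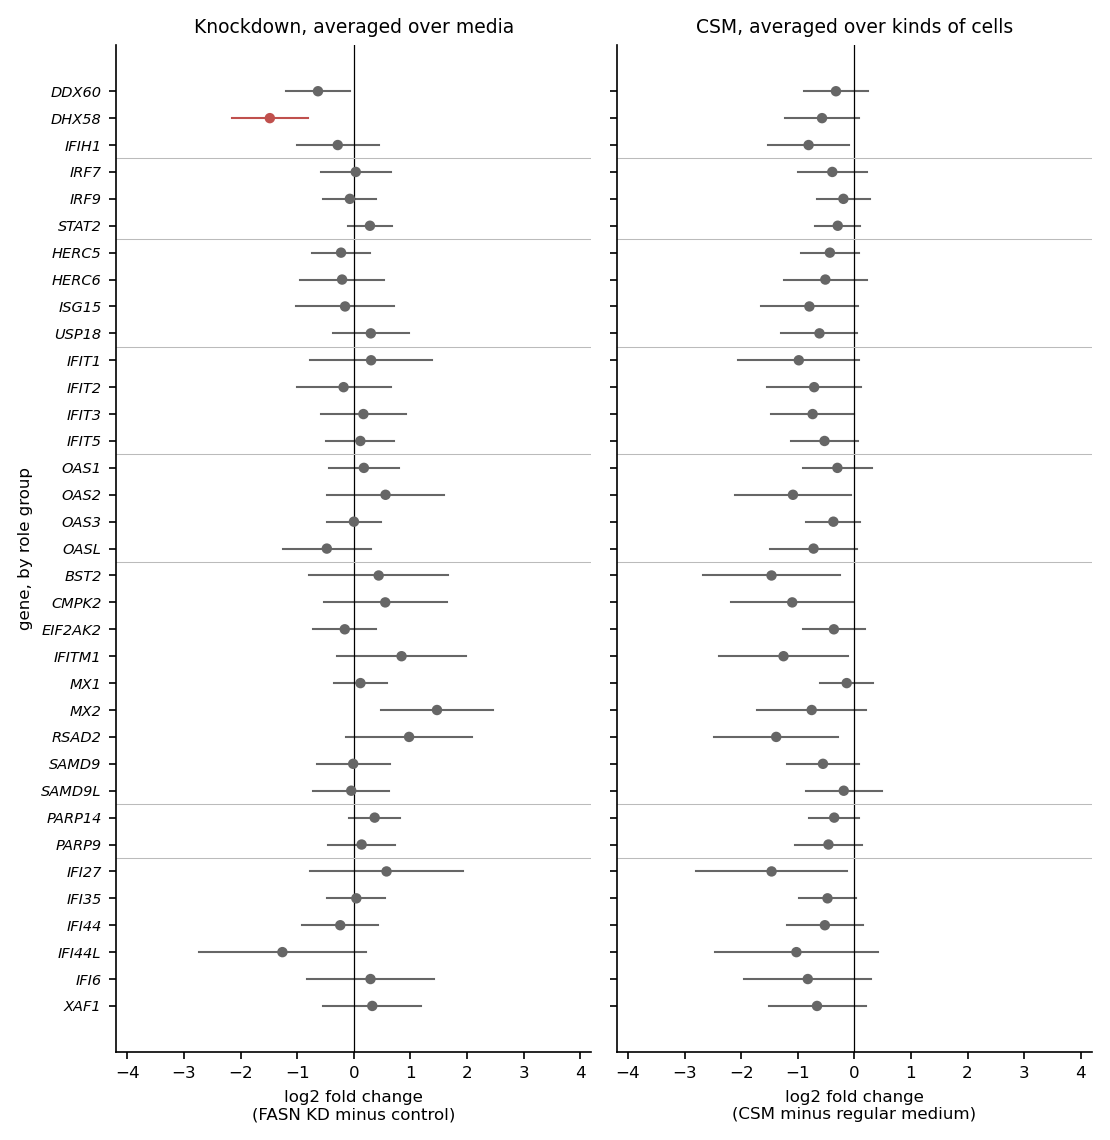
Log2 fold change of each member with its 95% interval from edgeR, for FASN knockdown minus control averaged over both media (left) and for CSM minus regular medium averaged over both kinds of cells (right). DHX58, in red on the left, is the only call; on the right all 35 points lie left of 0 on this scale, on log2(TPM + 1) 21 do, and none passes the adjusted test.

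Whether CSM altered the effect of the knockdown was tested as the difference between the knockdown fold changes in the 2 media. No member was called by edgeR or by DESeq2, none had an unadjusted p below 0.05, as 5.22% of all genes had, and edgeR called 0.0% and DESeq2 0.031% of all genes. The members' median was -0.01, with 16 above 0 and 19 below. The smallest p-values belonged to OAS1 (difference 0.79, 95% interval -0.44 to 2.03), STAT2 (0.47, -0.32 to 1.26) and BST2 (-1.29, -3.74 to 1.17). None of these intervals leaves out 0. Without the library labelled FASN knockdown after CSM replicate 4 the differences were 1.08 for OAS1 (unadjusted p = 0.042, adjusted p = 0.989), 0.67 for STAT2 and -0.89 for BST2.

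The genes around the members gave the setting of the pathway. Of 21 interferon ligand genes, 6 had no count in any library and 2 passed the count filter. The highest was IFNE, an interferon of epithelia, at a mean of 0.953 CPM, followed by IFNL1 at 0.179 CPM, and IFNB1 totalled 26 counts. The receptor and its kinases were present, led by JAK1 at 186.4 CPM and IFNAR1 at 114.4 CPM. Among the transcription factors STAT3 averaged 220.7 CPM, and among the sensors and adaptors ADAR averaged 409.2 CPM and MAVS 382.3 CPM. The negative regulators PIAS1 and PTPN2 averaged 52.9 and 36.4 CPM, and the type II interferon targets TAP1 and WARS1 80.9 and 77.9 CPM.

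Of these 72 other genes of the pathway, 49 were tested. In the averaged knockdown comparison 1 was called, beside 3.52% of all genes, and 0 in the other comparisons. The call was IDO1, the tryptophan-degrading enzyme that type II interferon induces, which was higher in FASN knockdown tumours. IDO1 had 2.24, 5.17 and 8.32 CPM in FASN knockdown libraries, against 2.12, 1.89 and 1.53 CPM in control libraries. IDO1 after CSM had 1.89, 4.72, 3.31 and 3.17 CPM in FASN knockdown libraries, against 2.14, 1.44, 0.596 and 1.59 CPM in control libraries. The groups did not overlap in regular medium, as those of 11.8% of all genes did not, and they overlapped after CSM. The averaged log2 fold change was 1.34 (95% interval 0.61 to 2.07, adjusted p = 0.0428). The call was lost under 11 of the 14 fits that leave out 1 library, with adjusted p-values over the 14 from 0.0178 to 0.124, and 0.0647 without the library labelled FASN knockdown after CSM replicate 4. The type II targets had 10 of 11 tested genes above 0 in that comparison (median 0.41), and 10 of 11 below 0 after CSM (median -0.38). For CSM 5 of 11 were below 0 on log2(TPM + 1) (median 0.02), where the median of all genes was 0.28.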

How the data were processed

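The data were 14 RNA sequencing libraries of UMUC3 xenograft tissue. Per the submitters' processing notes FastQC, cutadapt, Salmon and the build GRCh38 were used. The sources used here do not give versions, settings or the handling of mouse reads. One Salmon table was deposited for each library by the authors, holding estimated counts (expected counts, not normalised) and TPM for 252048 transcripts, and per the file headers also lengths and effective lengths, which were not used. For each gene, the estimated counts of its transcripts, matched by the gene identifier in the transcript name, were added up and rounded. The members were then picked out by symbol.

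Genes kept by filterByExpr (minimum count 10, minimum total 15) were tested with edgeR 4.0.16 (quasi-likelihood, TMM factors) in R 4.3.3, in 1 fit over the 14 libraries with a coefficient for each group and 10 residual degrees of freedom. The fit's biological coefficient of variation was 0.444. Calls are at a Benjamini-Hochberg adjusted p below 0.05 over 22560 genes. CPM are on TMM-scaled totals. A fold change is the knockdown over control, or CSM over regular medium. FASN was also compared with an exact permutation test (scipy 1.17.1). The fit was tested on simulated data. The labels leave out whether a group's libraries stem from different animals, so p-values measure only the spread between these libraries, which may be technical.

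The members and lists were chosen with earlier results of these data known. Named genes were FASN; in each comparison the called members or else the 3 with the smallest p; the 8 members with the highest mean TPM; the widest-ranging member of each role; and of the pathway lists (ligands, receptors and kinases, transcription factors, sensors and adaptors, negative regulators, type II targets) the called genes and the 2 most abundant. Per-library values were given for called members, the 8 highest and the 3 with the smallest p in the averaged knockdown comparison. Those of IDO1 were added after its values were seen. The results of 2 genes of these lists are not reported here.

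Alternatives were DESeq2 1.42.0, relative log expression or upper-quartile factors, 7SL removed, no count filter or 2 CPM in 3 libraries, only the groups compared, the replicate number as a block, limma 3.58.1 on log2(TPM + 1) and log2(TPM + 0.1), the 7SL share as a covariate, the libraries over 15% 7SL left out, and each library left out. Leaving out those over 15% 7SL together with FASN knockdown after CSM replicate 4 was added after seeing the data. Gene coordinates are from GENCODE 29, and promoter sequences from RefSeq.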

Additional observations from a re-analysis of the deposited data

Results flagged for a closer look

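In control tumours after CSM, 3 members had 1 library far above the other 3 of the group. The gap test was at the 95% level over 72 groups of 4, where chance alone marks about 1 group in 20. The 3 of 72 marked here are not more than that rate gives. The library was replicate 1 each time. IFIT2 had 160 CPM there, against 53.2, 56.6 and 66.7 CPM in the other libraries of the group. IFIT3 had 106 CPM, against 53.4, 48.9 and 56.6 CPM. OASL, a relative of the OAS enzymes without their activity, had 93.1 CPM, against 41.1, 35.4 and 30.6 CPM. The same library was among the low ones for other members, such as IFI6 at 66.0 CPM and CMPK2 at 3.38 CPM, and its mean log2 CPM of p53 target genes was 5.95. The part of that in the 3 high values was not tested.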

How the results depend on the processing

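The counts of members called moved under these settings. Without the count filter, 43484 genes were tested, and edgeR called 2 members for the knockdown in regular medium, 4 after CSM and 6 averaged. For CSM it called 6 in control cells, 5 in knockdown cells and 11 averaged. In the same order, all genes called were 389, 1178, 1575, 62, 175 and 88 of the 43484. DESeq2 called 1 for the knockdown in regular medium and 2 averaged, and 338, 1462 and 2016 of all genes in regular medium, after CSM and averaged. In the averaged knockdown comparison either TPM scale called 0 members, and of all genes 79 on log2(TPM + 1) and 101 on log2(TPM + 0.1). Leaving out 1 library called 0 to 2 members there. Without control replicate 2 the call was 0 members and 255 of 23738 genes. Without FASN knockdown after CSM replicate 4 it was 2 members, DHX58 and MX2, and 662 of 22321 genes. The cause was not tested.

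The members' median for CSM in knockdown cells was 0.35 on log2(TPM + 1) and 0.38 on log2(TPM + 0.1), where the median of all genes was 0.59 and 0.88, and the interaction median was 0.84 on log2(TPM + 0.1), where that of all genes was 0.91. Reversed were HERC6 for CSM in knockdown cells, at 0.62 and 0.69 on the TPM scales and 0.11 with the 7SL share as a covariate, IFI6 there at 0.15 with that covariate, and BST2 in the interaction, at 0.46 with the covariate and 0.15 without the libraries over 15% 7SL and FASN knockdown after CSM replicate 4 (range with 1 library left out -2.07 to -0.52). The cause was not tested.

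With 1 library left out, the medians ranged from -0.13 to 0.51 for the knockdown in regular medium, -0.23 to 0.21 after CSM, -0.03 to 0.22 averaged, -0.76 to -0.13 for CSM in control cells, -0.95 to -0.34 in knockdown cells, -0.72 to -0.34 averaged, and -0.41 to 0.30 for the interaction. With the replicate number as a block DHX58 was at -1.53 (adjusted p = 0.0314) and still called, the medians were 0.07 for the averaged knockdown and -0.40 for averaged CSM, and IDO1 lost its call (adjusted p = 0.143). Same-numbered libraries did not deviate together: of 19 pairs the correlations ran from -0.38 to 0.33, 5 were over 0.1, and the own number was the best match in 7 of 38. The averaged and interaction comparisons use all groups, so a fit of only the groups compared was not run for them.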
